A study of Homo sapiens with 6 samples.

Results

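Genes of DNA mismatch repair were followed in Jurkat cells, an established human T cell line derived from acute leukaemia (T-ALL), after 3 h inside a collagen gel. The 6 genes described are MSH3, MSH6, PMS2, PMS1, MLH3 and EXO1, taken by name from 17687 genes measured. Each was represented by its probe set of highest mean over the arrays, and in all 6 cases the gene had 1 probe set. Cells of 3 arrays were kept in suspension in RPMI with 10% fetal bovine serum. Cells of the other 3 arrays were mixed into bovine type I collagen at 1.7 mg/mL in the same medium, neutralised with 7.5% sodium bicarbonate and 25 mM Hepes, left for 1 h at 37 °C to set, and covered with warm medium for 2 h; this group is called 3D. All cells were the unmodified line at 37 °C and 5% CO2. The labels number the biological replicates 1 to 3 in each group without saying what separated them, so the p-values measure the spread between these samples. The groups differ in the gel, its salts and its handling together, and these cannot be told apart.

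Mismatch repair removes errors left by DNA polymerases. MutS dimers find the error: those holding MSH6 bind single-base mismatches and small loops, and those holding MSH3 bind larger insertion and deletion loops. MutL dimers are then recruited; the one holding PMS2 nicks the strand, the one holding MLH3 is best known from meiotic crossing over, and the part played by PMS1 in human cells is less clear. EXO1 is the exonuclease that removes the nicked strand before it is copied again. Jurkat cells are known as a line deficient in this pathway. Apart from the meiotic MutS gene MSH4, the other MutS and MutL subunits are not analysed here.

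Values are the deposited log2 expression of each probe set, so a difference of 1 is a 2-fold change. They ran from 1.97 to 13.58 over all probe sets, and the medians of the 6 arrays lay between 5.55 and 5.64. The 10 T cell markers checked had gene means from 6.45 to 11.32. Their median difference was -0.24 and 3 of them, all lower in 3D, had groups that did not overlap. The 14 measured markers of B, myeloid, NK, stromal, endothelial, epithelial and erythroid cells had a median gene mean of 5.23, from 2.27 to 8.28, and a median difference of -0.05. Their median level ran from 5.18 to 5.57 in suspension and from 5.09 to 5.20 in 3D; no detection calls were used here, so none can be called absent. Any part of these markers in the results below was not tested. In bulk RNA, fewer cells of a type and less RNA per cell cannot be told apart.

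The stretches around the start of 4 of the genes are shown because each holds a short word of the E2F type. Such words are known as binding sequences of E2F factors, which drive genes of S phase. The 4 genes do not all hold the same word. RefSeq windows of 300 bases, 250 before and 50 from the annotated start site (GRCh38.p14), were searched on both strands for the 4 E2F-type words TTTCCCGC, TTTGGCGC, TTTCGCGC and TTTGCCGC, for the cyclic AMP response element (CRE) TGACGTCA, for CCAAT and for the GC box GGGCGG. The lines below run from 130 bases before the start to 30 bases into the transcript, 5′ to 3′ on the gene's strand. Capitals mark the E2F-type words and the CRE.
MSH3: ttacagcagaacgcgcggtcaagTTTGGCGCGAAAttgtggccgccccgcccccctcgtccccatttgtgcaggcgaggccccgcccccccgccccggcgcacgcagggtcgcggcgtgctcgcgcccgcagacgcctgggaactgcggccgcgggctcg
MSH6: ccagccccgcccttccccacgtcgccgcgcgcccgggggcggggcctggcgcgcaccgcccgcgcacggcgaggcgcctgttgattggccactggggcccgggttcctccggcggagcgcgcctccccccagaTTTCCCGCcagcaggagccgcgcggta
PMS2: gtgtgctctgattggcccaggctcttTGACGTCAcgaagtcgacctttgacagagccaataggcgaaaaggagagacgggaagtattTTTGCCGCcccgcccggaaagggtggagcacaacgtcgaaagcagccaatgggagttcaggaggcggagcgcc
EXO1: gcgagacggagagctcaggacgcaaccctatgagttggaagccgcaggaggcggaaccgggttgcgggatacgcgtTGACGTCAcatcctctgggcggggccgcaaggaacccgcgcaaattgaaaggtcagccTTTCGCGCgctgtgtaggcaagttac

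These lie at chr5:80654522-80654681 on the plus strand (MSH3), chr2:47783015-47783174 on the plus strand (MSH6), chr7:6009077-6009236 on the minus strand (PMS2) and chr1:241848074-241848233 on the plus strand (EXO1). In MSH3 a pair of E2F-type words on opposite strands overlap, at positions -107 to -100 and -103 to -96 from the start. The E2F-type word of PMS2 lies at -43 to -36 and overlaps a GC box. Those of MSH6 and EXO1 begin just after the start, at positions 4 and 5. PMS2 and EXO1 also hold the CRE, at -104 and -54. An E2F-type word was thus present in the window of 4 of the 6 genes, against 3.34% of 27305 windows, 1 for each gene of the table, and 4.46% of the 14250 windows of genes measured here. The window nearest each gene's outer start was used; MSH6 has 4 windows in the table, and PMS2 and EXO1 have 2 each. Of all windows and of those of measured genes, the CRE occurs in 1.97% and 2.6%, CCAAT in 35.7% and 36.5% (here MSH6, PMS1 and PMS2) and the GC box in 44.5% and 59.3% (here all but MLH3). These words were chosen after the sequences and values had been seen, and a match is a description of letters, not of a bound site.

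**Figure D1:**
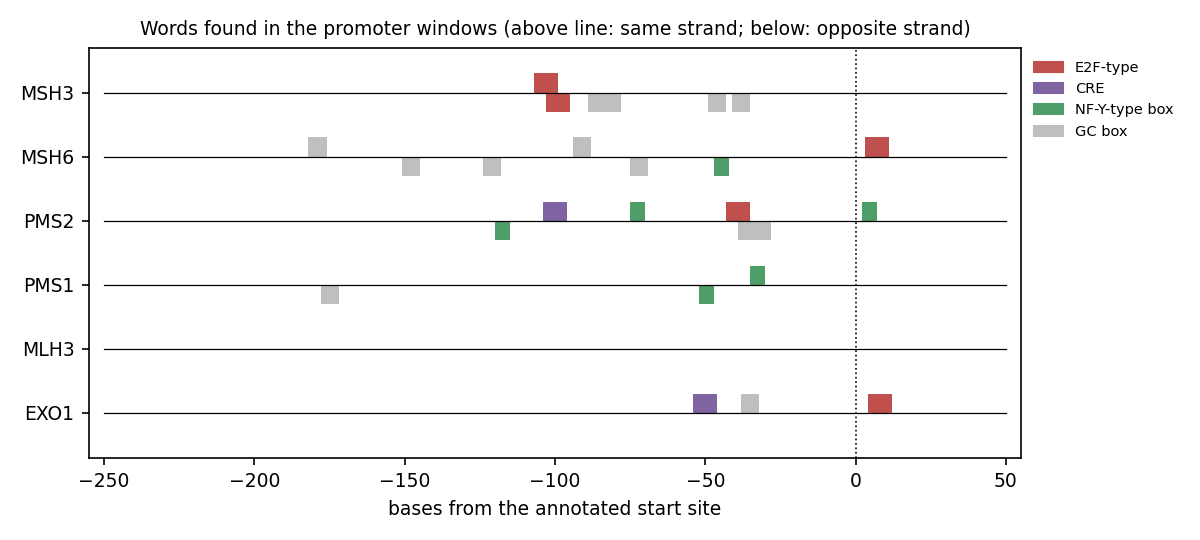
Positions of the searched words in the 300-base promoter windows of the 6 genes. The x axis is the distance in bases from the annotated start (dotted line); boxes above a line are on the gene's strand and boxes below it on the opposite strand, coloured by word, with NF-Y-type marking CCAAT. E2F-type words appear for MSH3, MSH6, PMS2 and EXO1, and MLH3 has no box.

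The comparison asks which of these transcripts differ after 3 h in collagen. The differences of all 6 were above 0 in 3D, from 0.22 for MLH3 to 0.70 for MSH3, with a median of 0.59. Over all 17687 genes the median was -0.02, with 8376 differences above 0 and 9311 below. None passed the test: limma, adjusted by Benjamini-Hochberg over all genes, gave adjusted p-values from 0.372 to 0.796, and it called 0% of all genes at 0.05. At an unadjusted p under 0.05 in the same limma fit, 4 of the 6 (MSH3, MSH6, PMS1 and EXO1) were higher in 3D, against 5.9% of all genes, or 1043, with 702 lower. Quantile normalization once more changed that split to 893 higher and 900 lower, with the same 4 members among the higher ones. The groups did not overlap, with 3D above, for 5 of the 6, against 8.28% of all genes. The 6 genes sit in the same arrays and are not independent of one another. They were also chosen with earlier results of these data known, so their counts beside those of all genes are a description only.

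**Figure D2:**
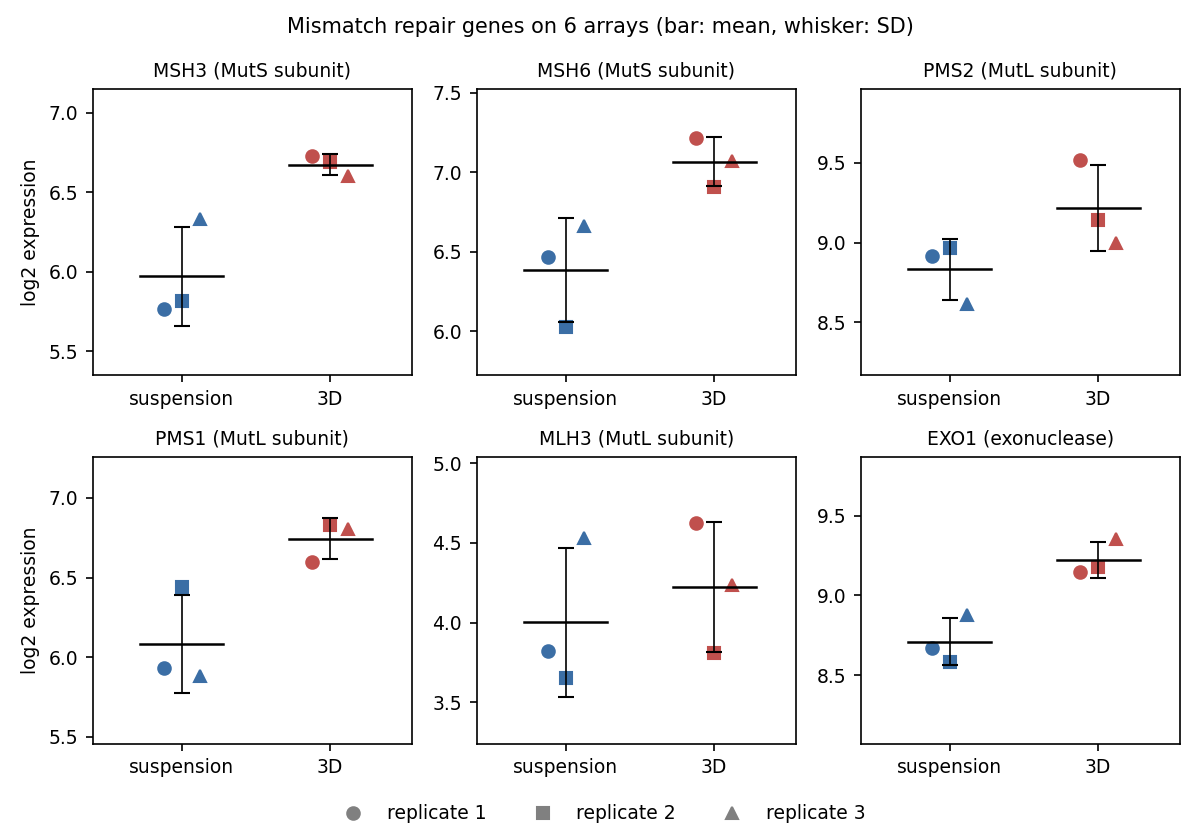
Log2 expression of each gene on the 6 arrays; all panels span the same number of log2 units, symbols are replicates, the long bar is the group mean and whiskers are the SD (n = 3). Every 3D value is above every suspension value in all panels but that of MLH3.

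MSH3, the subunit for larger loops, measured 5.77, 5.81 and 6.33 in suspension and 6.73, 6.69 and 6.60 in 3D, with arrays given here and below in the order of their replicate numbers. The 3D values lay close together, and the highest suspension array, replicate 3, stayed below them all. The group means were 5.97 ± 0.31 and 6.67 ± 0.06 (SD, n = 3). The log2 difference was 0.70 ± 0.18 (SE), or 1.63-fold, with a 95% interval of 0.30 to 1.11 and a limma adjusted p of 0.372. It was larger than the differences of 99% of all genes. Taking same-numbered arrays together, it was 0.96, 0.87 and 0.27, smallest in number 3, where the suspension array was high.

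MSH6, the subunit for single mismatches, measured 6.47, 6.03 and 6.66 in suspension and 7.22, 6.91 and 7.07 in 3D. Its lowest array was suspension replicate 2 and its highest 3D replicate 1. The means were 6.39 ± 0.32 and 7.07 ± 0.15 (SD, n = 3), a log2 difference of 0.68 ± 0.19 (SE), with a 95% interval of 0.25 to 1.10 and a limma adjusted p of 0.380. By replicate number the difference was 0.75, 0.88 and 0.41. Centred on their own means, MSH6 and MSH3 had the most similar profiles of any 2 of the 6 genes. Their root mean square difference was 0.170 log2 over the arrays. EXO1 was nearly as close, at 0.173 to MSH3 and 0.183 to MSH6. The differences of the 2 MutS genes lay within each other's intervals.

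PMS2, the endonuclease subunit, measured 8.92, 8.96 and 8.61 in suspension and 9.52, 9.14 and 8.99 in 3D. The groups did not overlap, but the gap was narrow: suspension replicate 2 and 3D replicate 3 were nearly level. The means were 8.83 ± 0.19 and 9.22 ± 0.27 (SD, n = 3). The log2 difference of 0.39 ± 0.19 (SE), or 1.31-fold, had a 95% interval from -0.03 to 0.80 and a limma adjusted p of 0.520. PMS2 has near-identical pseudogene copies, PMS2CL among them, so its signal could come from more than 1 copy. PMS2P3, the 1 such copy with a probe set of its own here, measured 10.05, 9.49 and 9.47 in suspension and 10.10, 10.21 and 9.74 in 3D. Its groups overlapped, with a log2 difference of 0.35 ± 0.21 (SE) and a limma adjusted p of 0.587.

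PMS1, the MutL subunit of less certain role, measured 5.93, 6.44 and 5.88 in suspension and 6.60, 6.83 and 6.80 in 3D. Suspension replicate 2 was the highest of its group, where for MSH6 it was the lowest. The means were 6.08 ± 0.31 and 6.74 ± 0.13 (SD, n = 3), a log2 difference of 0.66 ± 0.19 (SE) or 1.58-fold, with a 95% interval of 0.25 to 1.07 and a limma adjusted p of 0.380. By replicate number it was 0.66, 0.39 and 0.92, so number 3, the smallest for MSH3 and MSH6, was the largest here.

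MLH3, the MutL subunit linked to meiosis, measured 3.82, 3.65 and 4.53 in suspension and 4.63, 3.81 and 4.24 in 3D. The groups overlapped, and suspension replicate 3 was second only to 3D replicate 1. The means were 4.0 ± 0.47 and 4.22 ± 0.41 (SD, n = 3), under 6, the limit used here for dim probe sets, which 47.2% of all genes reached. The log2 difference of 0.22 ± 0.26 (SE) had a 95% interval from -0.36 to 0.80 and a limma adjusted p of 0.796. An interval this wide holds both no change and the differences of the other 5 genes. By replicate number the difference was 0.80, 0.16 and -0.29, and without 3D replicate 1 the group difference was 0.02.

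EXO1, the strand-removing exonuclease, measured 8.67, 8.58 and 8.88 in suspension and 9.14, 9.18 and 9.35 in 3D. Its SDs were 0.15 and 0.11 (n = 3), around means of 8.71 and 9.23. The log2 difference was 0.51 ± 0.16 (SE), or 1.43-fold, with a 95% interval of 0.16 to 0.87 and a limma adjusted p of 0.399. Of the 6 genes it was the most even by replicate number, at 0.47, 0.59 and 0.48.

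**Figure D3:**
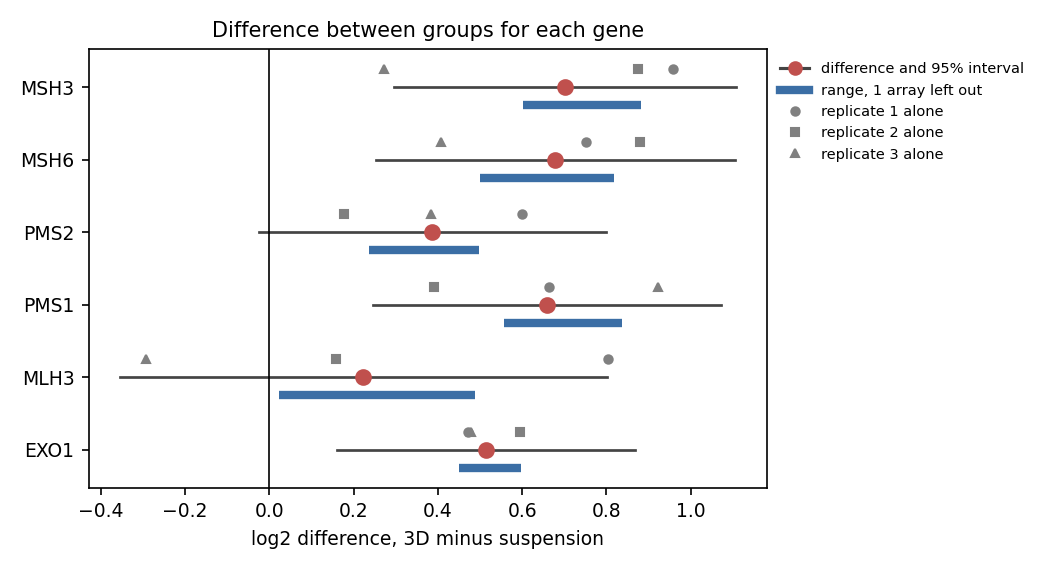
Log2 difference between 3D and suspension for each gene (dot) with its 95% interval from limma (thin line), the range when 1 array at a time is left out (thick line), and the difference within each replicate number (grey symbols). The intervals of PMS2 and MLH3 include 0, and the range without 1 array stays above 0 for all 6 genes.

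With the replicate number as a block, limma called 16 genes higher in 3D, or 0.0905% of those tested, and 0 of the 6. The adjusted p was 0.0921 for MSH3, 0.0886 for MSH6, 0.0914 for PMS1, 0.120 for EXO1, 0.230 for PMS2 and 0.588 for MLH3. When that fit was limited to the 8342 genes with a mean of at least 6, a setting chosen with results in view, 4 of the 5 members left passed as higher in 3D. The background there was 10.6%, or 884 genes, with 315 lower. The limma adjusted p was 0.00329 for MSH3, 0.00306 for MSH6, 0.00370 for PMS1, 0.0133 for EXO1 and 0.0600 for PMS2. Over all settings with the block it ran from 0.000594 to 0.228 for MSH3 and from 0.00306 to 0.166 for MSH6. For PMS1 the limma adjusted p ran from 0.000159 to 0.319, and for EXO1 from 0.0133 to 0.314. The lowest value of MSH3 came from the limited fit without pair 3, and that of PMS1 from the limited fit without pair 2. In those fits each member tested had the same SE, 0.192 and 0.167 in that order. Their spread was thus the one shared over all genes, not each gene's own. The calls of the limited fit rested on the pairs, and its background moved with them. Without pair 1 the limited fit called MSH3, MSH6 and PMS1, with 331 of all its genes higher and 127 lower. Without pair 2 it called those with EXO1 and PMS2, with 923 genes higher and 534 lower. Without pair 3 it called MSH3 and MSH6, with 369 genes higher and 37 lower. Quantile normalization once more kept the 4 calls while the background became 650 higher and 425 lower. The same 8342 genes without the block gave 0 calls in limma. At an unadjusted p under 0.05 in that limma fit, 4 members were higher, where 730 of all these genes were higher and 301 lower.

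The later steps of mismatch repair use the sliding clamp, its loader, the single-strand binding protein, DNA polymerase delta and a ligase. In this list of 15 genes, all measured, 8 differences were above 0 and 7 below, with a median of 0.04, and 0 passed in limma (adjusted p 0.504 to 0.968); 2 were higher and 0 lower at an unadjusted p under 0.05. RFC1 and RFC3, subunits of the clamp loader, had log2 differences of 0.46 ± 0.20 and 0.39 ± 0.17 (SE), with groups that did not overlap. LIG1, the ligase that seals the new strand, had -0.57 ± 0.26, and HMGB1, a DNA-bending protein that aids excision, had 0.37 ± 0.19. The clamp gene PCNA, which overlapped between groups, had 0.20 ± 0.19. Groups did not overlap for 3 of the 15 with 3D above and for 1 of 15 with 3D below, where 5 of the 6 members had 3D above; the difference between these lists was not tested.

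Of 5 measured genes described as helping or modifying mismatch repair, all had differences above 0 and 0 passed in limma (adjusted p 0.498 to 0.982); 1 had an unadjusted p under 0.05. MCM9, a helicase that works with mismatch repair, measured 8.14, 7.77 and 7.93 in suspension and 8.23, 8.41 and 8.32 in 3D, a log2 difference of 0.38 ± 0.16 (SE). FAN1, a nuclease that binds MutL proteins, had 0.33 ± 0.16, MCM8, the partner of MCM9, 0.49 ± 0.29, and SETD2, whose histone mark is read by MSH6, 0.25 ± 0.21. The meiotic MutS gene MSH4 measured 4.23, 4.55 and 4.24 in suspension and 4.93, 5.68 and 5.85 in 3D. Its log2 difference of 1.15 ± 0.23 (SE) gave a limma adjusted p of 0.330, and it was 1 of the 16 genes called with the block. All its arrays lay under 6, as did those of MLH3.

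The repair pathways of single damaged bases and of bulky lesions were counted the same way. Base excision repair had 6 differences above 0 and 11 below over 17 genes, with a median of -0.12; 2 were lower and 0 higher at an unadjusted p under 0.05 in limma and 0 passed (adjusted p 0.505 to 0.966). SMUG1 and MPG, DNA glycosylases, had -0.39 ± 0.18 and -0.38 ± 0.17 (SE), and MBD4, a glycosylase for mismatched thymine that is known to bind a MutL protein, had 0.38 ± 0.17. Nucleotide excision repair had 6 above and 7 below over 13 measured genes, with a median of -0.03. In limma 2 were higher and 0 lower at an unadjusted p under 0.05, and 0 passed (adjusted p 0.427 to 0.972). ERCC8, whose groups did not overlap, had 0.50 ± 0.18 (SE). GTF2H1 had 0.43 ± 0.18, XPA 0.42 ± 0.21 and ERCC3 -0.31 ± 0.17. MGMT, which reverses the alkylated guanine that mismatch repair also acts on, had 0.14 ± 0.18. ALKBH2, the other measured gene of direct reversal, had -0.27 ± 0.39 (SE), with overlapping groups. By replicate number it was -0.27, -0.26 and -0.27. With the block, higher and lower counts at an unadjusted p under 0.05 in limma were 1 and 4 for base excision, 3 and 0 for nucleotide excision and 3 and 1 for the later steps of mismatch repair, with 0 passing. None of these lists was tested against the members.

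**Figure D4:**
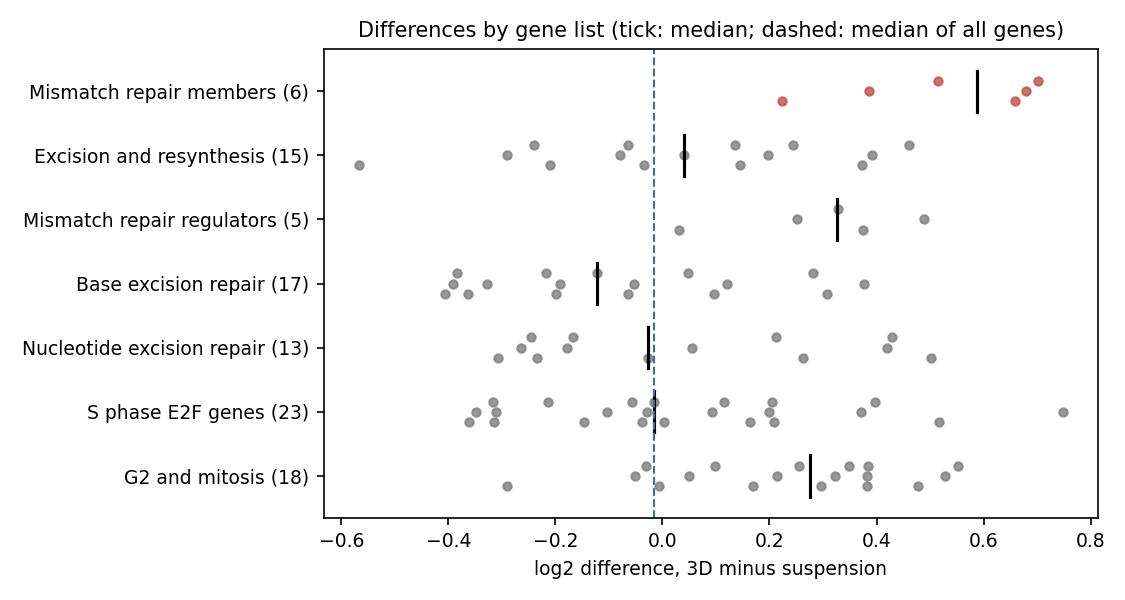
Log2 difference between 3D and suspension for single genes (dots) of the mismatch repair genes and 6 other lists, with the number measured in brackets, the list median (tick) and the median of all genes (dashed line). All 6 mismatch repair genes lie to the right of 0, as do all 5 mismatch repair regulators and 14 of 18 genes of G2 and mitosis. Base excision repair has 6 of 17 there, nucleotide excision repair 6 of 13, the later steps 8 of 15 and S phase genes 11 of 23.

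Mismatch repair accompanies DNA replication, so 2 lists of the cell cycle were set beside them. Genes of S phase, many of them E2F targets, had 11 differences above 0 and 12 below over 23 genes, with a median of -0.02, and 0 passed in limma (2 higher and 0 lower at an unadjusted p under 0.05, and 4 and 2 with the block). POLA1, of the polymerase that starts new strands, had 0.75 ± 0.16 (SE) and CLSPN, a replication checkpoint gene, 0.52 ± 0.18, while TK1, thymidine kinase, had -0.36 ± 0.17 and CDT1, a licensing factor, -0.35 ± 0.17. E2F-type words lay in the windows of 15 of the 20 S phase genes with a window. Those 15 had a median difference of -0.04, against 0.09 for the S phase genes with a window but no such word. Over all 636 tested genes with such a word the median was 0.02, against -0.01 without one. POLA1 and CLSPN, both higher, and CDT1, lower, are among the S phase genes that hold the word. Whether the word goes with the members' differences was not tested.

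Genes of G2 and mitosis had 14 differences above 0 and 4 below over 18 genes, with a median of 0.28, and 0 passed (0 at an unadjusted p under 0.05 in limma). Their groups overlapped in all 18. With the replicate number as a block 0 passed as well, and 8 of the 18 were higher and 0 lower at an unadjusted p under 0.05 in limma, and 10 were higher in all 3 pairs. Among them were KIF11, a spindle motor gene, at 0.48, and CCNA2, the cyclin of S phase and G2, at 0.38. Their blocked adjusted p-values in limma were 0.139 and 0.219. The lowest of the 18 were those of CENPE (difference 0.55) and CENPF (0.53), at 0.1113 and 0.1285 in the same limma fit. With the block 5 of the 6 members were higher at an unadjusted p under 0.05, against 10% of all genes. The median level of the 18 genes was 8.49, 9.13 and 9.53 in suspension and 8.63, 9.50 and 9.58 in 3D, so it was lowest in replicate 1 of both groups. The median level of the 6 members was 6.20, 6.23 and 6.50 in suspension and 6.97, 6.87 and 6.94 in 3D. In suspension it had the same order as that of the 18 genes, lowest in replicate 1. In 3D replicate 1 was the highest, just above replicate 3. Within 3D, EXO1 and PMS1 were lowest on replicate 1, and the other 4 members were highest there. The part of cell cycle stage in the members' differences was not tested.

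The nearest measured protein-coding genes on each side were read as a check of the surroundings. Of 13 such genes (a tie gave EXO1 an extra one), 10 differences were above 0 and the median was 0.08. Groups did not overlap for 2 of them, FBXO11 with 3D above and RASGRF2 with 3D below. Over all 17687 genes this held for 1465 with 3D above and 1421 below. Of the 13, 0 passed in limma (adjusted p 0.485 to 0.979). FBXO11, a ubiquitin ligase gene that overlaps the end of MSH6, measured 6.35, 6.73 and 6.65 in suspension and 7.23, 6.88 and 6.91 in 3D, a log2 difference of 0.43 ± 0.18 (SE). ORMDL1, a regulator of sphingolipid synthesis, starts from the opposite strand within the PMS1 window. It measured 8.03, 8.34 and 8.53 in suspension and 8.51, 8.92 and 8.83 in 3D, a difference of 0.45 ± 0.19 (SE) with groups that overlapped slightly. The largest difference among the neighbours was that of CHML, beside EXO1, at 0.61 ± 0.31 (SE). It measured 5.39, 6.21 and 6.50 in suspension and 6.14, 6.61 and 7.15 in 3D, so its groups overlapped, while it was higher in each replicate number, by 0.76, 0.41 and 0.65 (blocked limma adjusted p 0.0944). Smaller differences were measured beside MSH3 (ANKRD34B at 0.03 and RASGRF2 at -0.29) and PMS2 (CCZ1 at 0.08 and EIF2AK1 at 0.11).

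Differences also varied with how crowded a gene's surroundings were. Among 3750 genes with 0 to 6 protein-coding genes inside 500 kb on either side the median difference was 0.07, and among 3407 genes with 28 to 77 it was -0.13. MSH6 has 4 such neighbours, EXO1 has 9, MSH3 has 10, PMS1 has 13, MLH3 has 16 and PMS2 has 18. For 7 to 10, 11 to 16 and 17 to 27 neighbours the medians were 0.06, -0.01 and -0.07. The part of this trend in the members' differences was not tested.

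Genes whose profiles over the 6 arrays were most like those of the members were drawn from those with a mean of at least 6, by the smallest root mean square difference of centred log2 values. For MSH3 they were ZNF440 (0.06 log2) and ICE2 (0.08), for MSH6 RBM39 (0.09) and ANKRD28 (0.10), and for EXO1 USP9X (0.04) and EDEM3 (0.04). For PMS2 they were METTL15 (0.05) and ZCCHC7 (0.06), for PMS1 NAPEPLD (0.11) and DTWD1 (0.12), and for MLH3 HNRNPLL (0.14) and NGLY1 (0.16). Among the members themselves the least alike were PMS1 and MLH3 (0.56). None of these 12 genes passed in limma either, with DTWD1 at 0.78 ± 0.17 (SE) and an adjusted p of 0.337. With 8341 or 8342 genes compared over 6 arrays, close profiles are common, and the likeness is a description only.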

How the data were processed

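RNA of 6 Jurkat samples was labelled with the GeneChip WT PLUS reagents for Affymetrix arrays, per the labels' protocols. The authors deposited log2 values, 1 per probe set and array, made with RMA and the Transcriptome Analysis Console per the submitters' processing notes. Versions and build are not given in the sources used here. This summary shrinks differences of dim probe sets. Of 21448 probe sets, 17709 had 1 symbol in the platform annotation; the highest-mean probe set of each gene left 17687. There were 0 columns beyond the 6. limma 3.58.1 (R 4.3.3; lmFit, eBayes, two-sided, Benjamini-Hochberg over all genes, threshold 0.05) compared the groups without a block, with 4 residual and 6.79 prior degrees of freedom, and was tested on simulated data. The number of arrays limits the precision.

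The members and the 10 lists were chosen with earlier results of these data known. Of 126 list genes, 118 were measured. Named genes are the members, up to 4 genes of smallest p per list, the nearest measured neighbours and the 2 most similar profiles. PCNA, PMS2P3, CENPE and CENPF were added after their values were seen. Promoter windows and neighbours came from RefSeq tables of GRCh38.p14, matched by symbol (6 of 6). Alternatives were the block, a mean of at least 6, further scalings, all probe sets, a trend and left-out arrays. Deviations from the group means correlated between arrays of the same number at 0.521, 0.120 and 0.337, all over 0.1, so the replicate numbers were taken as pairs; suspension 2 with 3D 3 (0.230) and suspension 3 with 3D 2 (0.149) also did. Plots used matplotlib 3.10.9 under Python 3.11.15.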

Additional observations from a re-analysis of the deposited data

How the results depend on the processing

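Under the 11 settings without the replicate block, the differences of the members kept their sign and stayed short of the threshold (limma), and 0 genes were called; MLH3 had no value with a mean of at least 6. Leaving out 1 array gave 0.60 to 0.88 for MSH3, 0.50 to 0.82 for MSH6, 0.24 to 0.50 for PMS2, 0.56 to 0.84 for PMS1, 0.02 to 0.49 for MLH3 and 0.45 to 0.60 for EXO1.

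With the replicate block 16 genes were called, and 21, 150 and 36 without pairs 1, 2 and 3; 0 members were called in these. MLH3 turned to -0.068 with the block and without pair 1, and was 0.48 without pair 3. The block and a mean of at least 6, added later, called 1199 genes and 4 members (MSH3 0.70, MSH6 0.68, PMS1 0.66 and EXO1 0.51), and with quantile normalization again 1075 genes and 4 members (0.68, 0.66, 0.64 and 0.46 in that order). Without pair 1 it called 458 genes and 3 members (MSH3 0.57, MSH6 0.64, PMS1 0.66), without pair 2 1457 and 5 (0.62, 0.58, 0.79, EXO1 0.47 and PMS2 0.49), and without pair 3 406 and 2 (MSH3 0.92, MSH6 0.82). Fewer genes tested and a spread shared more between genes are built into the limited fit. Without pair 2 or pair 3 its SE was the same for every member tested. The cause of the added calls was not tested. The background of these arrays was not measured here, which limits what can be said of MLH3.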
